A study of Mus musculus with 12 samples.

Results

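The 10 genes through which the kidney handles phosphate and vitamin D were followed in whole kidneys from XLAS males. XLAS is X-linked Alport syndrome, an inherited disease of the type IV collagen network of the glomerular basement membrane. They were taken by symbol from the deposited table: the phosphate carriers Slc34a1, Slc34a3, Slc20a1 and Slc20a2, the hormone receptors and co-receptor Kl, Fgfr1, Pth1r and Vdr, and the vitamin D enzymes Cyp24a1 and Cyp27b1. All 10 members of the set were found, among 55487 genes in the table, and all 10 passed the count filter. The animals were B6 males aged 30 weeks, all with the Col4a5 disease, fed a control diet (6 libraries) or food containing fisetin, a plant flavonol, at 500 ppm (6 libraries). Genotype is labelled HET, which does not state an allele for a male, and no unaffected kidney was used here. Each of 2 batches in the labels held 3 libraries of each diet. Libraries are named by diet and a number in accession order, and since nothing says that each came from its own animal, p-values measure only the spread between these samples.

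Phosphate is filtered at the glomerulus and taken back in the proximal tubule by sodium-coupled carriers of the brush border. Parathyroid hormone and fibroblast growth factor 23 (FGF23), the latter acting through fibroblast growth factor receptors with the co-receptor Klotho, withdraw these carriers and so raise phosphate loss. In the same tubule Cyp27b1 makes the active form of vitamin D and Cyp24a1 breaks it down, under opposing control by these hormones, and the vitamin D receptor carries the signal to genes.

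Counts summed to between 16310214 and 24451821 per library, and the estimated count of the rarest members, Slc34a3 and Cyp27b1, was never below 91 and 112. Values below are CPM, read counts scaled to library size, given as the lowest, median and highest of 6 libraries, or mean ± SD. Library fisetin 6 stood apart from the other 5 fisetin libraries. It lay outside their range in 8 of the 10 members, and within the control range in 4 of those 8 (Slc34a1, Slc34a3, Kl and Pth1r). Its proximal tubule marker score was the highest of all 12 libraries, at 9.24 mean log2 CPM against 8.14 to 8.77 in the other 5 fisetin libraries, and its immune cell score was the lowest, at 4.33 against 5.17 to 5.94. It was also the highest of the 12 for the distal and connecting tubule score (7.12) and the podocyte score (6.28). Its tubular injury score (4.60) was the lowest. The diet differences of the members and of the marker scores are also given without it, and those of the other pathway genes with all libraries only. Fisetin 6 was set apart by these same values, so the results without it give no independent support for a diet difference.

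The stretches before the start sites of 3 members are shown because Slc34a1 and Kl moved together across libraries while Slc20a1 ran against the proximal tubule score. Whether the motifs bear on these relations was not tested. They are RefSeq promoter sequences (GRCm38.p6), from 250 to 10 bases before the start site, 5′ to 3′ on the strand of the gene, and lie outside the exons of each gene in the GENCODE annotation. Capitals mark GTTAAT (a half-site of the hepatocyte factor HNF1), AGGTCA (a half-site of nuclear receptors) and CACGTG (an E-box), searched on both strands.
Slc34a1 (chr13:55399398-55399638, plus strand): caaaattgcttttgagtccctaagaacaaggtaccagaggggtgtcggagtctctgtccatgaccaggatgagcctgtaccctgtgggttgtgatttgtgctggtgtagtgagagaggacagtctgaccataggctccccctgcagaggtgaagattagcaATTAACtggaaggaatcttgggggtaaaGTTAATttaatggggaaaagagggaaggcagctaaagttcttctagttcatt
Kl (chr5:150952357-150952597, plus strand): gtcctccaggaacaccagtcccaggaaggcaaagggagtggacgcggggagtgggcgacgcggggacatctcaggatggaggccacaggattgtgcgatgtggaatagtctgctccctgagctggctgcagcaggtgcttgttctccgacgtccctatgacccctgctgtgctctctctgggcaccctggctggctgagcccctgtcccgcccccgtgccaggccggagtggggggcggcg
Slc20a1 (chr2:129198523-129198763, plus strand): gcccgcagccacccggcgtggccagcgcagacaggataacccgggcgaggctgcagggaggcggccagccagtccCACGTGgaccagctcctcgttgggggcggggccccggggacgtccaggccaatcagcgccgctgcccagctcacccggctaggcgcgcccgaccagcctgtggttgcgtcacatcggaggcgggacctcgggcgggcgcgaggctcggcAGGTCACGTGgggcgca
The Slc34a1 stretch held 2 matches to GTTAAT, beginning 89 bases (reverse strand) and 61 bases (forward strand) before the start site. A match occurs in 6.29% of 32817 promoter stretches of the same length. That of Slc20a1 held CACGTG at 175 and 22 bases, which 5.73% of stretches hold, and AGGTCA at 26 bases, overlapping the nearer CACGTG, which 13.6% hold. None of these motifs was in the Kl stretch, and TATAAA, present in 12.1% of stretches, was in none of the 3. The RefSeq table had entries for 7 of the 10 members. Of those not shown, the stretches of Slc34a3, Pth1r, Vdr and Cyp27b1 held 0 matches to GTTAAT, although Slc34a3, Pth1r and Vdr also followed the proximal tubule score. AGGTCA was also in the Slc34a3 stretch, at 33 bases (forward strand). The Slc34a1 start site used by RefSeq lies 1461 bases from the start of its GENCODE gene, and Slc20a1 has 2 RefSeq entries, of which the one 9 bases from the GENCODE gene start is shown. The other Slc20a1 entry held AGGTCA at 75 bases (reverse strand) and no CACGTG.

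Per length of message, the set spanned a wide range of levels, with the main phosphate carrier far above all others. Slc34a1, which encodes the brush-border carrier NaPi-IIa, had a mean of 1464 ± 361 FPKM (SD, n = 12), and its lowest library, at 861 FPKM, was above the highest library of every other member. Pth1r, the parathyroid hormone receptor gene, followed at 158 ± 26.7 FPKM and was above Kl in 12 of 12 libraries. Kl, the Klotho gene, had 90.9 ± 28.0 FPKM and Cyp24a1 76.3 ± 23.7 FPKM. These neighbours overlapped, and Kl was the higher in 9 of 12 libraries.
Vdr had 47.0 ± 10.8, Slc20a1 39.1 ± 10.4, Fgfr1 30.8 ± 3.36 and Slc20a2 24.6 ± 1.18 FPKM, in each case with a range that overlapped the next. Slc34a3, the gene of the related brush-border carrier NaPi-IIc, had 18.3 ± 9.06 FPKM. Cyp27b1, the activating enzyme gene, was the lowest at 5.74 ± 1.83 FPKM and lay below Slc34a3 in 12 of 12 libraries, although their ranges over libraries overlapped. The gene length implied by count and FPKM differed between libraries by up to 1.64 times for Slc34a3 and 1.26 times for Vdr, against at most 1.18 times for the other 8. FPKM and CPM need not rank libraries alike, for those 2 genes or for steady ones such as Slc20a2. Control 6 was the highest library for Slc20a2 by CPM (78.8), but its 24.8 FPKM lay below the 26.5 FPKM of fisetin 2 (76.7 CPM).

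**Figure D1:**
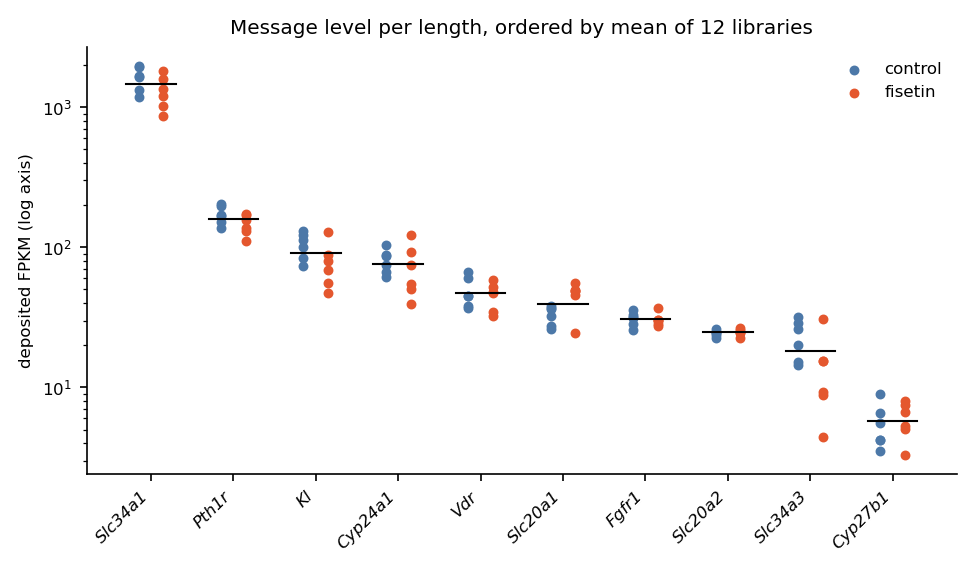
Deposited FPKM (log axis) of the 10 members in 6 control (blue) and 6 fisetin (orange) libraries, with a line at the mean of all 12. Slc34a1 stands above every other member in all libraries, and Cyp27b1, at 5.74 FPKM on average, is the lowest.

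The diet comparison asked whether fisetin in the diet moved these messages in diseased kidneys. None of the 10 members passed the edgeR threshold (adjusted p under 0.05), where 0% of the 17890 genes tested did. By unadjusted p under 0.05, 1 of 10 members was called, Slc20a1 on the higher side, against 14.6% of all genes tested, so the share is near the background. Of the 10 log2 fold changes, 8 were negative and 2 positive, with a median of -0.19, while 49.8% of all genes tested were negative and their median was 0.00080. DESeq2 called 0 of the 10 members (1 at an unadjusted p under 0.05) against 0.954% of the genes it tested, and limma-voom with sample quality weights called 3 (Slc34a3, Slc20a1 and Kl) against 13.4%. No member's libraries separated completely by diet, against 0.894% of genes tested.

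**Figure D2:**
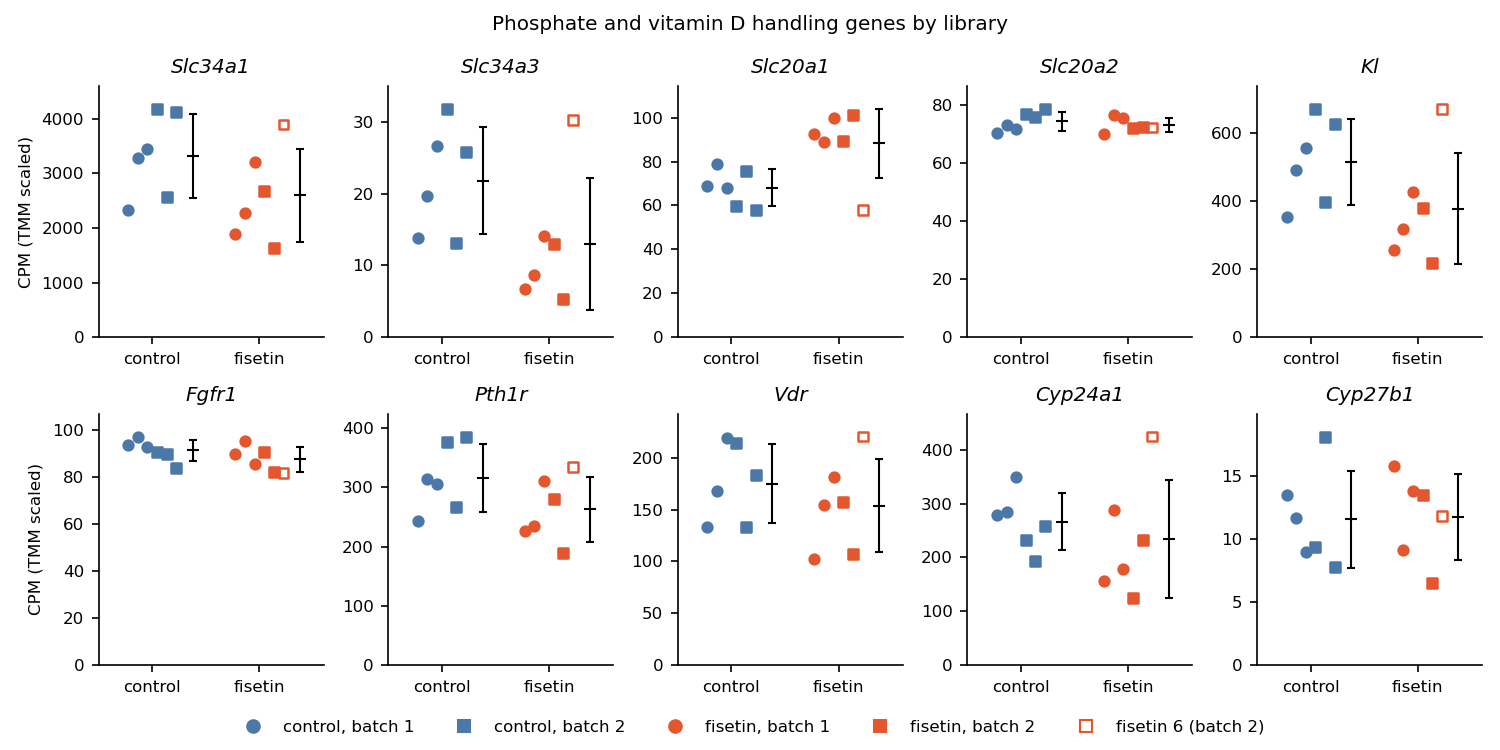
CPM of each member in 6 control (blue) and 6 fisetin (orange) libraries, circles for batch 1 and squares for batch 2, with mean ± SD in black; the open square is fisetin 6. The 5 filled fisetin points of Slc20a1 lie at 89.0 to 101 CPM, above the control range of 57.9 to 78.7, while the open square is at 57.8.

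Among the phosphate carriers, the brush-border genes Slc34a1 and Slc34a3 had lower means with fisetin and the housekeeping carrier Slc20a1 a higher one. Slc34a1 (ENSMUSG00000021490, chromosome 13, 55398187 to 55415592, GRCm38) had 2333, 3356 and 4177 CPM with the control diet and 1623, 2475 and 3889 CPM with fisetin. Libraries of the diets overlapped widely, and 5 of 6 fisetin libraries lay below the control mean. The log2 fold change was -0.35 ± 0.22 (SE; edgeR adjusted p = 0.43), or 0.784 of the control level, and -0.50 ± 0.21 without fisetin 6 (edgeR adjusted p = 0.167). Without fisetin 5, the library with the lowest level, it was -0.22 ± 0.18 (edgeR adjusted p = 0.696).
Slc34a3 (ENSMUSG00000006469, chromosome 2, 25228898 to 25234364), mutated in hereditary phosphate wasting with rickets, had 13.2, 22.7 and 31.8 CPM with the control diet and 5.29, 10.8 and 30.25 CPM with fisetin. Fisetin 6 was the library at 30.25, and the other 5 fisetin libraries were at or below 14.1 CPM, where only 2 of the controls also lay. This member had the widest difference, -0.78 ± 0.39 log2 (edgeR adjusted p = 0.362), or 0.581 of the control level, and -1.17 ± 0.33 without fisetin 6 (edgeR adjusted p = 0.0889). Without fisetin 5 it was -0.61 ± 0.34 (edgeR adjusted p = 0.602). Per length, the Slc34a1 message exceeded that of Slc34a3 by a lowest, median and highest ratio of 58.6, 76.8 and 91.2 in control and 59.3, 107 and 193 in fisetin kidneys (FPKM), the lowest fisetin ratio being that of fisetin 6. The highest was that of fisetin 5, whose implied Slc34a3 length was 1.25 kb, against 0.76 to 1.02 kb in the other libraries. That ratio therefore depends in part on the implied length.

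Slc20a1 (ENSMUSG00000027397, chromosome 2, 129198764 to 129211616) encodes PiT-1, a sodium-phosphate carrier that most cells use for their own supply. It had 57.9, 68.4 and 78.7 CPM with the control diet and 57.8, 90.8 and 101 CPM with fisetin. The 5 other fisetin libraries were above every control, and fisetin 6 was below every control. The log2 fold change was 0.37 ± 0.12 (SE; edgeR unadjusted p = 0.00846, adjusted p = 0.281), or 1.29 times the control level. It was 0.38 ± 0.08 in batch 1 (edgeR adjusted p = 0.584) and 0.37 ± 0.22 in batch 2 (edgeR adjusted p = 0.749), each taken alone. Without fisetin 6 it was 0.46 ± 0.08 and passed (edgeR adjusted p = 0.037), in a fit where 70 genes passed over all. Its Slc20a1 level was among the values that set fisetin 6 apart, so this pass is not independent of that choice. Without fisetin 5 the log2 fold change was 0.30 ± 0.12 (edgeR adjusted p = 0.513), so the call depended on the library left out.
Slc20a2 (ENSMUSG00000037656, chromosome 8, 22476788 to 22569612), the gene of the sister carrier PiT-2, had 70.4, 74.7 and 78.8 CPM against 70.0, 72.4 and 76.7 CPM. It was the steadiest carrier, with ranges that nearly coincided and a log2 fold change of -0.02 ± 0.04 (edgeR adjusted p = 0.778), whose sign turned to 0.02 under total count scaling. It was -0.02 ± 0.04 without fisetin 6 (edgeR adjusted p = 0.833).

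Of the hormone receptors, Kl and Pth1r had lower means with fisetin in the same libraries as Slc34a1, and Fgfr1 differed little. Kl (ENSMUSG00000058488, chromosome 5, 150952607 to 150993817), the FGF23 co-receptor made mostly in distal and proximal tubules, had 353, 523 and 671 CPM with the control diet. With fisetin it had 217, 348 and 670 CPM. The highest fisetin value was again that of fisetin 6, level with the highest control, and the other 5 were at or below 427 CPM. The log2 fold change was -0.45 ± 0.25 (edgeR adjusted p = 0.394), or 0.731 of the control level, and -0.68 ± 0.22 without fisetin 6 (edgeR adjusted p = 0.112). Without fisetin 5 it was -0.31 ± 0.21 (edgeR adjusted p = 0.648).
Fgfr1 (ENSMUSG00000031565, chromosome 8, 25513654 to 25575718), the receptor that pairs with Klotho, had 83.8, 91.6 and 97.2 CPM against 81.8, 87.7 and 95.2 CPM. The ranges overlapped almost fully, and the log2 fold change was -0.06 ± 0.04 (edgeR adjusted p = 0.497), and -0.05 ± 0.05 without fisetin 6 (edgeR adjusted p = 0.525).
Pth1r (ENSMUSG00000032492, chromosome 9, 110722085 to 110747145) had 243, 310 and 386 CPM with the control diet and 189, 258 and 334 CPM with fisetin, with 5 of 6 fisetin libraries below the control mean. Its log2 fold change was -0.26 ± 0.15 (edgeR adjusted p = 0.407), and -0.33 ± 0.15 without fisetin 6 (edgeR adjusted p = 0.2). Without fisetin 5 it was -0.16 ± 0.12 (edgeR adjusted p = 0.678).

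The vitamin D genes had overlapping diets throughout, and none passed. Vdr (ENSMUSG00000022479, chromosome 15, 97854425 to 97910630) had 133, 176 and 220 CPM with the control diet and 102, 156 and 221 CPM with fisetin, a log2 fold change of -0.19 ± 0.20 (edgeR adjusted p = 0.644), and -0.32 ± 0.19 without fisetin 6 (edgeR adjusted p = 0.312). It shrank to -0.089 without fisetin 1, -0.093 without fisetin 5, -0.091 without control 3 and -0.13 without control 4 (edgeR adjusted p of 0.838 to 0.886). The diets overlapped over most of their ranges, and fisetin 6 had the highest Vdr level of all 12 libraries.
Cyp24a1 (ENSMUSG00000038567, chromosome 2, 170482708 to 170497145) had 193, 269 and 349 CPM with the control diet and 125, 205 and 425 CPM with fisetin. Its fisetin libraries enclosed the whole control range, fisetin 4 at the bottom and fisetin 6 at the top. The log2 fold change of -0.18 ± 0.28 (edgeR adjusted p = 0.755) was -0.55 ± 0.23 in batch 1 alone and 0.19 ± 0.39 in batch 2 alone. It was -0.47 ± 0.19 without fisetin 6 (edgeR adjusted p = 0.165). It shrank to -0.061 without fisetin 1, -0.065 without fisetin 4, -0.092 without fisetin 3 and -0.094 without control 3 (edgeR adjusted p of 0.877 to 0.941). The difference between batches did not pass as an interaction (0.74 log2, edgeR unadjusted p = 0.183, adjusted p = 0.9999), which 0% of genes tested did. By unadjusted p under 0.05, 0 of the 10 members and 2.1% of genes tested were called for this interaction.
Cyp27b1 (ENSMUSG00000006724, chromosome 10, 127048250 to 127053006) had 7.77, 10.5 and 18.2 CPM with the control diet and 6.51, 12.7 and 15.8 CPM with fisetin. Here the control libraries held the highest value and the fisetin libraries the lowest. The log2 fold change was 0.02 ± 0.24 (edgeR adjusted p = 0.972), -0.15 in batch 2 alone, and its sign changed with the library left out. It was 0.0049 ± 0.27 without fisetin 6 (edgeR adjusted p = 0.993).
Per length, the ratio of the degrading to the activating enzyme message (Cyp24a1 over Cyp27b1, FPKM) had a lowest, median and highest of 6.78, 15.7 and 25.0 in control and 5.19, 13.2 and 23.1 in fisetin kidneys. The degrading enzyme was thus the more abundant message in every library, and the ratio varied several-fold within each diet.

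**Figure D3:**
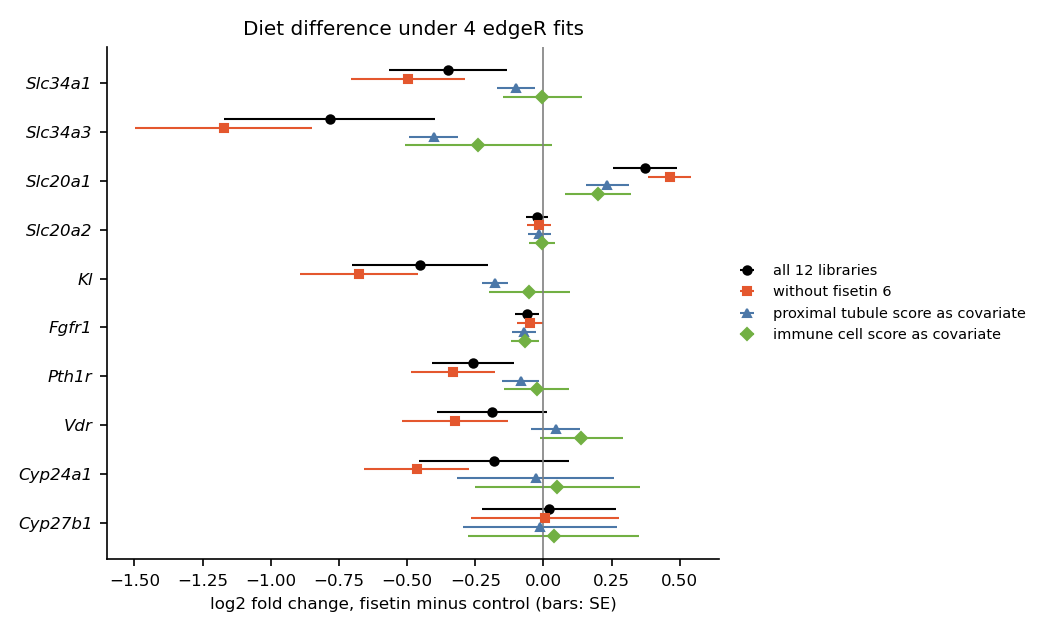
log2 fold change (fisetin minus control) with SE of the 10 members in 4 edgeR fits: all 12 libraries (black circles), without fisetin 6 (orange squares), and with the proximal tubule score (blue triangles) or the immune cell score (green diamonds) as a covariate. Slc34a3 moves from -0.78 to -1.17 without fisetin 6 and to -0.40 with the proximal tubule score.

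Members differed in how far they varied over the 12 libraries. The highest library was 6.02 times the lowest for Slc34a3, 3.40 times for Cyp24a1, 3.09 times for Kl, 2.79 times for Cyp27b1 and 2.57 times for Slc34a1. It was 1.19 times for Fgfr1 and 1.12 times for Slc20a2. Between batches 0 of the 10 members passed (edgeR adjusted p of 0.892 to 0.978), and 0% of genes tested did.

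Part of that spread was shared between members. Relations were tested on log2 CPM centred within batch, over 12 libraries, by 100000 permutations within batches, with adjustment over 16 relations. Diet was not removed, so any difference between the diets remains in each r and rho. Kl and Slc34a1 had a Pearson r of 0.987 and a Spearman rho of 0.944 (permutation p = 9e-05 and 0.00016, adjusted p = 0.00024 and 0.000366), and r was 0.973 in batch 1 and 0.993 in batch 2. Leaving out the 2 libraries farthest from the median of Kl, fisetin 1 and fisetin 5, gave an r of 0.967.
Pth1r and Slc34a1 had an r of 0.985 and a rho of 0.923 (permutation p = 4e-05 and 5e-05, adjusted p = 0.00016 and 0.000224), with 0.976 and 0.991 in the batches and 0.977 without the 2 farthest libraries, fisetin 5 and control 6. Slc34a1 and Slc34a3 had an r of 0.962 and a rho of 0.916 (permutation p = 6e-05 and 0.00011, adjusted p = 0.000192 and 0.000293), with 0.905 and 0.991 in the batches and 0.906 without fisetin 1 and fisetin 5. The 4 genes therefore ranked the kidneys in nearly the same order.
The vitamin D enzymes did not pass. Cyp24a1 and Cyp27b1 had an r of -0.465 and a rho of -0.531 (permutation p = 0.17 and 0.0831, adjusted p = 0.226 and 0.111), with -0.837 in batch 1, -0.289 in batch 2 and -0.65 without fisetin 4 and fisetin 6. Vdr and Cyp24a1, a classic target of the receptor, had an r of 0.517 and a rho of 0.566 (permutation p = 0.106 and 0.0657, adjusted p = 0.154 and 0.0955), with 0.604 and 0.456 in the batches and 0.495 without fisetin 1 and fisetin 5. Kl and Cyp27b1 had an r of -0.0266 and a rho of -0.196 (permutation p = 0.946 and 0.583, adjusted p = 0.946 and 0.622), with -0.511 and 0.165 in the batches and -0.563 without fisetin 1 and fisetin 5.

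The shared order was also that of a proximal tubule marker score, the only score whose r and rho with the members were taken. Fisetin 5 had the lowest proximal tubule score and the highest immune cell score (8.14 and 5.94), and fisetin 6 the reverse (9.24 and 4.33). Whether the order is particular to proximal tubule message was not tested. The proximal tubule score was the mean log2 CPM of 16 marker genes of proximal tubule segments 1 and 2, none of them a member, and in a whole kidney fewer cells of a type and less RNA per cell cannot be told apart. Against this score Kl had an r of 0.977 and a rho of 0.965 (permutation p = 3e-05 for both, adjusted p = 0.00016 and 0.000224), and Slc34a1 an r of 0.963 and a rho of 0.944 (permutation p = 0.00014 and 6e-05, adjusted p = 0.00032 and 0.000224). Slc34a3 had 0.956 and 0.944 (permutation p = 3e-05 for both, adjusted p = 0.00016 and 0.000224), and Vdr 0.926 and 0.937 (permutation p = 1e-05, the smallest the draws can give, and 7e-05, adjusted p = 0.00016 and 0.000224). Pth1r had 0.923 and 0.804 (permutation p = 0.00061 and 0.00422, adjusted p = 0.00122 and 0.00844). In each batch the r of these 5 genes was between 0.921 and 0.983, and without the 2 farthest libraries, fisetin 5 and fisetin 6, between 0.897 and 0.977.
Slc20a1 ran against the score, with an r of -0.806 and a rho of -0.839 (permutation p = 0.00871 and 0.00591, adjusted p = 0.0155 and 0.0105). That relation was uneven, at -0.364 in batch 1 and -0.96 in batch 2, and -0.652 without the 2 farthest libraries. Cyp24a1 passed by rank only (r = 0.552, rho = 0.643, permutation p = 0.0953 and 0.0224, adjusted p = 0.153 and 0.0359), with 0.518 and 0.581 in the batches and 0.638 without the 2 farthest libraries. Without fisetin 6 alone, r was -0.772 for Slc20a1 and 0.372 for Cyp24a1. Slc20a2 (r = 0.299, rho = 0.308, permutation p = 0.375 and 0.335), Fgfr1 (r = -0.0431, rho = -0.0559, permutation p = 0.91 and 0.877) and Cyp27b1 (r = -0.0606, rho = -0.294, permutation p = 0.883 and 0.417) did not pass, with adjusted p of 0.413 to 0.946. Without the 2 farthest libraries their r was 0.423, -0.18 and -0.736, and without fisetin 6 alone it was 0.538, 0.191 and -0.141, the sign of Fgfr1 having turned. In batches 1 and 2 their r was 0.192 and 0.377, 0.0129 and -0.0713, and -0.52 and 0.0839.

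**Figure D4:**
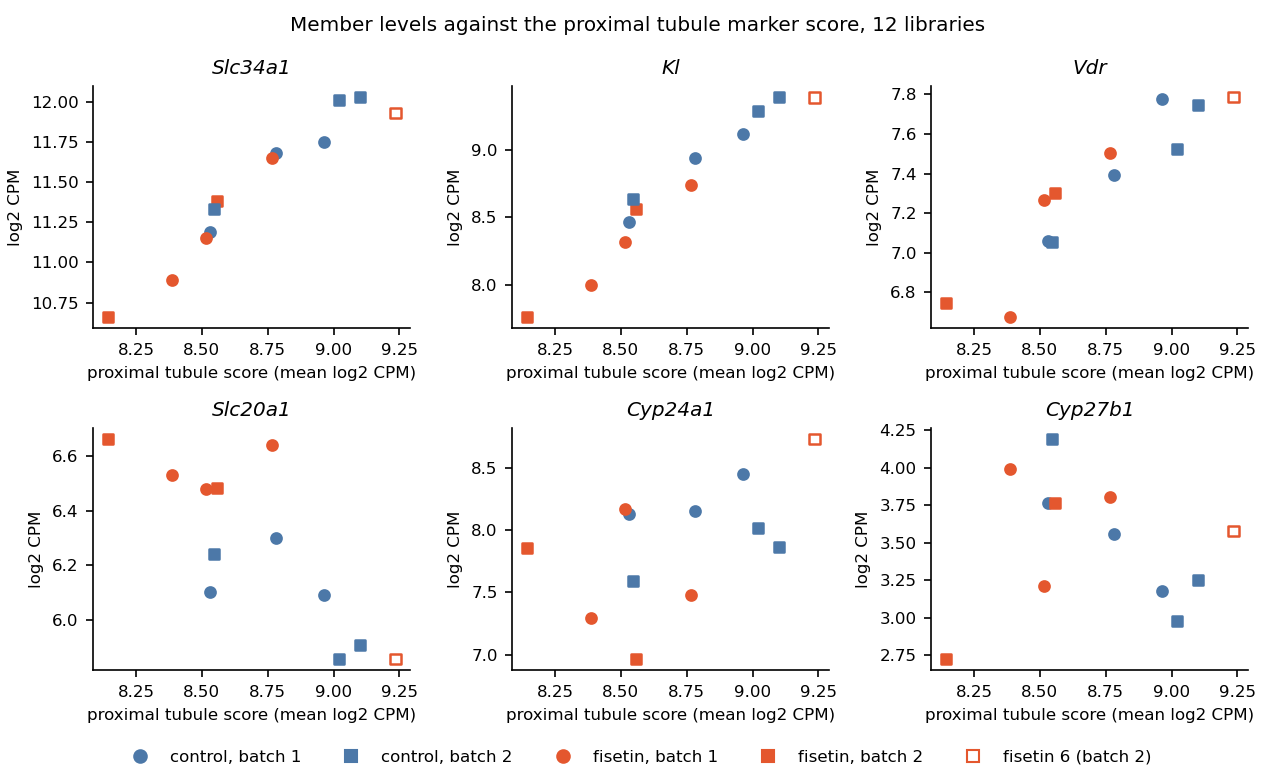
log2 CPM of 6 members against the proximal tubule score (mean log2 CPM of 16 markers) in 12 libraries, control blue and fisetin orange, circles for batch 1 and squares for batch 2, fisetin 6 open. Slc34a1, Kl and Vdr rise with the score, Slc20a1 falls, and Cyp24a1 and Cyp27b1 scatter.

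The marker scores themselves were set beside the diet difference, by an exact two-sided permutation test over 400 arrangements of diet within batches, adjusted over 9 lists. The proximal tubule segment 1 and 2 score was 8.82 ± 0.25 in control and 8.60 ± 0.37 in fisetin kidneys (SD, 6 libraries per diet; fisetin minus control -0.22, exact permutation p = 0.265, adjusted p = 0.398), with 14 of its 16 markers negative and summed levels of 8784 to 16600 CPM with fisetin against 10440 to 16300 CPM. The difference was -0.35 without fisetin 6 (exact permutation p = 0.045, adjusted p = 0.081) and -0.11 without fisetin 5. The immune cell score was 5.33 ± 0.56 with fisetin against 4.78 ± 0.41 (difference 0.55, exact permutation p = 0.09, adjusted p = 0.27), with 12 of 12 markers positive and 1068 to 2732 CPM against 1121 to 1970 CPM. Without fisetin 6 the difference was 0.75 (exact permutation p = 0.025, adjusted p = 0.0563). The other scores differed by -0.60 (proximal segment 3), -0.24 (thick limb), -0.28 (distal and connecting tubule), 0.01 for fibroblasts, 0.10 for tubular injury and -0.08 for podocytes (exact permutation p of 0.07 to 0.955, adjusted p of 0.27 to 0.955). Without fisetin 6 these 6 differences were -0.75, -0.33, -0.41, 0.052, 0.29 and -0.17 in the same order (exact permutation adjusted p of 0.0563 to 0.745). Without fisetin 5 they were -0.40, -0.12, -0.16, -0.061, 0.048 and -0.0072, and the tubular injury difference was lowest, at 0.026, without fisetin 4. The principal cell list, -0.62 (exact permutation p = 0.005, the smallest possible; adjusted p = 0.045), was the only list of the 9 to pass. It was -0.69 without fisetin 6 (adjusted exact permutation p = 0.045), and it no longer passed without fisetin 1 or without any 1 of controls 2 to 6 (exact permutation adjusted p of 0.09 to 0.135).
With the proximal tubule score as a covariate, the log2 fold change was -0.10 ± 0.07 for Slc34a1, -0.18 ± 0.05 for Kl, -0.08 ± 0.07 for Pth1r, 0.05 ± 0.09 for Vdr, -0.40 ± 0.09 for Slc34a3 and 0.23 ± 0.08 for Slc20a1, none past the threshold (edgeR adjusted p of 0.0729 to 0.885). The edgeR unadjusted p in that fit was 0.000367 for Slc34a3, 0.00225 for Kl and 0.0103 for Slc20a1, against 0.0666, 0.0963 and 0.00846 without the score. These 3 members were under 0.05, against 1 in the main fit, and 2337 genes over all were, against 2608. With the immune cell score the log2 fold change was -0.00 for Slc34a1, -0.05 for Kl, -0.03 for Pth1r, 0.14 for Vdr, -0.24 for Slc34a3 and 0.20 for Slc20a1 (edgeR adjusted p of 0.734 to 0.997). In that fit 0 members and 1433 genes over all had an edgeR unadjusted p under 0.05. These scores come from the same libraries, and their part in the diet differences was not tested. Markers of bone and parathyroid, the tissues that make FGF23 and parathyroid hormone, summed to at most 1.09 CPM, with Ibsp and Pth at 0 in every library.

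The other genes of the pathway were described from 6 lists. In each of them 0 members passed by edgeR and 0 by DESeq2 (adjusted p under 0.05). The counts below stand against 49.8% of all genes tested with a negative log2 fold change and 14.6% at an unadjusted p under 0.05 in either direction. Tubule markers were mostly negative too, with 14 of 16 in proximal segments 1 and 2, 9 of 10 in segment 3 and 8 of 8 in the thick limb. The distal list had 7 of 8, principal cells 9 of 9, podocytes 6 of 7, fibroblasts 4 of 8, tubular injury 2 of 8 and immune cells 0 of 12. Lrp2 and Cubn are also proximal markers, and Slc8a1, Calb1 and Trpv5 distal ones. The part of this in the counts below was not tested. Phosphate carriers and their scaffolds had 9 of 10 tested members negative (median -0.18), 1 of them at an unadjusted p under 0.05, where 6.34% of all genes tested were lower at that level. That was Slc9a3r1, which encodes the scaffold NHERF1 that holds NaPi-IIa in the brush border, at 218 ± 25.9 CPM in control and 176 ± 33.3 CPM in fisetin kidneys (SD, 6 libraries per diet; log2 fold change -0.30 ± 0.12, edgeR adjusted p = 0.312). Slc17a4, a carrier gene of the SLC17 family, stood at -0.42 ± 0.24 and the mitochondrial phosphate carrier gene Slc25a3 at -0.18 ± 0.11. Slc17a2 was not tested, with 2 to 27 counts per library.
FGF23 and Klotho signalling genes went both ways, with 6 of 14 tested members positive (median -0.01). Lower at an unadjusted p under 0.05 were 3 genes, against 6.34% of all genes tested. These were Spry4, a feedback inhibitor of receptor tyrosine kinases (-0.28 ± 0.07, edgeR adjusted p = 0.257), Fgfr2 (-0.36 ± 0.11, edgeR adjusted p = 0.276) and Fam20c, a kinase of secreted proteins including FGF23 (-0.17 ± 0.05, edgeR adjusted p = 0.281). Spry2 (-0.02 ± 0.09), Dusp6 (0.05 ± 0.08) and Egr1 (0.04 ± 0.16) of the same list differed little (edgeR adjusted p of 0.776 to 0.942). Higher at an unadjusted p under 0.05 were 2 genes, against 8.23% of all genes tested. They were Adam10 (0.17 ± 0.06, edgeR adjusted p = 0.299) and Adam17 (0.17 ± 0.07, edgeR adjusted p = 0.303), both named after their values were seen. Both encode proteases able to cut Klotho from the cell surface. Bace1, another protease gene of the list, did not differ (-0.0061 ± 0.046, edgeR adjusted p = 0.955). Fgf23 had at most 4 counts per library, Dmp1 at most 3 and Phex 2 to 9, and these were not tested.

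Parathyroid hormone and calcium sensing genes had 7 of 7 tested members negative (median -0.09), where 49.8% of all genes tested were, and 0 at an unadjusted p under 0.05, where 14.6% were. The calcium-sensing receptor gene Casr was at -0.21 ± 0.10, Stc1, which encodes the hormone stanniocalcin, at -0.52 ± 0.28 and Prkaca, a protein kinase A subunit gene, at -0.09 ± 0.05. Pth was at 0 in every library, Pthlh had at most 10 counts and Pth2r at most 3.
Vitamin D supply and receptor partners had 8 of 11 tested members negative (median -0.06), against the same 49.8%, and 0 at an unadjusted p under 0.05, against 14.6%. Lrp2, which encodes megalin, the receptor that takes up filtered vitamin D with its binding protein, had 4301 ± 960 CPM in control and 3116 ± 1190 CPM in fisetin kidneys (SD, 6 libraries per diet; log2 fold change -0.47 ± 0.22, edgeR adjusted p = 0.348). Rxra, the partner receptor of the vitamin D receptor, was at -0.13 ± 0.08 and Dab2, the megalin adaptor gene, at -0.17 ± 0.11. Rxrg, with 2 to 15 counts, was not tested.
Vitamin D dependent calcium transport genes had 6 of 7 members negative (median -0.22; 49.8% of all genes), with 0 at an unadjusted p under 0.05 (14.6% of all genes). The sodium-calcium exchanger gene Slc8a1 was at -0.32 ± 0.17, and the plasma membrane calcium pump genes Atp2b1 and Atp2b4 were at 0.10 ± 0.06 and -0.13 ± 0.08. Genes of mineral deposition and its inhibitors had 5 of 7 members positive (median 0.03). Abcc6, whose loss causes ectopic calcification, was the 1 member at an unadjusted p under 0.05, on the lower side where 6.34% of all genes tested stood (-0.52 ± 0.17, edgeR adjusted p = 0.281), while Ank, which exports pyrophosphate, and Spp1, the osteopontin gene, were at 0.13 ± 0.11 and 0.16 ± 0.15.

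Overlap with other genes limits some values, since strand in the counting is not given in the sources used here. In GENCODE, Pfn3 on the opposite strand shares 11.7% of the exon bases of Slc34a1, but had 0 to 1 counts per library. Gm4430, opposite Slc20a1, shares 5.02% and had 39 to 82 counts, and 9830144P21Rik shares 8.1% with at most 5 counts. Opposite Slc20a2 and Cyp24a1, Smim19 and Pfdn4 share 1.53% and 2.33%, with 206 to 348 and 88 to 142 counts. Shares for overlapping genes of Fgfr1 and Pth1r were 1.66% and 3.25%, with at most 6 counts.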

How the data were processed

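Libraries of kidney messenger RNA came from the KAPA mRNA HyperPrep kit and RNA with an integrity number above 8, per the labels' protocols. Tools named in the submitters' processing notes are STAR, fastp, DESeq2 and featureCounts, with mm10 and GRCm38 as builds. For versions, annotation and counting settings the sources used here say nothing. The table deposited by the authors holds estimated counts (rounded before testing, since 13.91% of those above 0 missed a whole number by over 1e-06). It also holds TPM and FPKM that the authors scaled for length and depth, per the file headers.

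Diet came from titles and batch from the batch field. Genes passing filterByExpr (minimum count 10; 17890 genes) were scaled by TMM and fitted with terms for batch and diet by edgeR 4.0.16 in R 4.3.3 (glmQLFit robust, glmQLFTest, two-sided, Benjamini-Hochberg over all genes tested, threshold 0.05). Standard errors came from the fold change and F statistic. DESeq2 1.42.0 and limma 3.58.1 (voom with quality weights, and log2(TPM + 1) or log2(FPKM + 1)) were alternatives, with other scalings, no filter, no batch term, single batches, each library left out, and marker scores (prior count 2) as covariates. Coordinates are from GENCODE M21, promoters from RefSeq.

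The members and lists were chosen with earlier results of these data known. All 10 members are named, and of each pathway list up to 3 members with the smallest p and those not tested. Adam10, Adam17, Bace1, Spry2, Dusp6 and Egr1 were named outside this rule, after their values were seen. Ankh of the fixed list is Ank in the table. In 66 library pairs, squared differences were 6.84 to 101 times counting noise, so no library was treated as a copy. On simulated counts (3 draws of 200 changed genes; on average 17715 genes tested), the share recovered by edgeR was 18.7% for changes of 1.3-fold and 52.7% for 1.5-fold, rising to 82% (2-fold) and 93.3% (3-fold), and 4.65% of calls were false.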

Additional observations from a re-analysis of the deposited data

Results flagged for a closer look

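In 20 groups checked (10 members in 2 diets of 6 libraries), 2 held a library far from the others by Dixon's criterion (gap over range above 0.625), where chance gives about 1 in 20. Both were fisetin 6. Its Slc20a1 level of 57.8 CPM lay below the other 5 fisetin libraries (89.0 to 101 CPM), with a gap of 0.719 of the range. Its Slc34a3 level of 30.25 CPM lay above the other 5 (5.29 to 14.1 CPM), with a gap of 0.648 of the range. The same library had the highest proximal tubule score (9.24) and the lowest immune cell score (4.33) of the 12. Its distal and connecting tubule (7.12) and podocyte (6.28) scores were also the highest, and its tubular injury score (4.60) the lowest. The part of these scores in the 2 values was not tested.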

How the results depend on the processing

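Across 24 alternatives per member, Slc34a1, Slc34a3, Kl and Pth1r stayed negative and Slc20a1 positive. Their log2 ranges were -0.50 to -0.00, -1.17 to -0.24, -0.68 to -0.05, -0.35 to -0.03 and 0.20 to 0.46. The count of members past the threshold, 0 as reported, was 3 by limma-voom with quality weights and 0 to 1 over the fits that leave out each library, the 1 being Slc20a1 without fisetin 6. The count over all genes, 0 as reported, was 154 by DESeq2 (unadjusted p under 0.05: 2817, against 2608 by edgeR), 2390 by limma-voom, 1 in batch 1 alone, 54 with the proximal tubule score as a covariate, and 0 to 70 over the fits that leave out each library (70 without fisetin 6, 1 without fisetin 4). Signs turned for Slc20a2 (0.020 by total count scaling, 0.046 in batch 1 alone, 0.055 on log2(TPM + 1), 0.023 on log2(FPKM + 1)), Fgfr1 (0.011 on log2(TPM + 1)), Cyp24a1 (0.19 in batch 2 alone, 0.050 with the immune score), Vdr (0.045 with the proximal tubule score, 0.14 with the immune score) and Cyp27b1 (-0.15 in batch 2 alone, -0.014 with the proximal tubule score). Leaving out each library in turn, Cyp27b1 ran from -0.073 (without fisetin 1) to 0.245 (without control 5) and the fibroblast score difference from -0.061 (without fisetin 5) to 0.099 (without fisetin 3). The fibroblast difference was -0.12 in batch 1 alone, and the tubular injury difference -0.061 in batch 2 alone. The principal cell difference ran from -0.69 to -0.47 over the leave-one-out tests and lost its call in 6 of the 12 (without fisetin 1 and controls 2 to 6; adjusted p = 0.09 to 0.135). The cause of these changes was not tested. No paired analysis was possible because the labels give no replicate numbers that the diets share. At this depth and spread most 1.3-fold differences would be missed, as in the simulated counts. Those shares were taken over all simulated changed genes, not for single members, whose SE ran from 0.04 log2 for Slc20a2 to 0.39 for Slc34a3. For the most variable members larger differences could therefore be missed as well.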
